A study of Mus musculus with 24 samples.

Results

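Ceramide, sphingosine and sphingosine-1-phosphate are lipids that a short chain of enzymes converts into each other, and 10 genes of this chain were followed in the mouse hippocampus after a night of corticosterone intake. They encode 2 enzymes of ceramide synthesis (*Degs1*, *Cers2*), 4 ceramidases (*Acer2*, *Acer3*, *Asah1*, *Asah2*), 2 sphingosine kinases (*Sphk1*, *Sphk2*), the lyase *Sgpl1* and the receptor *S1pr1*. The genes were chosen by symbol, and all 16 probes whose printed accession belongs to 1 of them were used, out of 56605 probes and 23783 named genes. Where a gene had several probes, the brightest stood for it and the others are given beside it. In mice given corticosterone, *Acer2* was called higher in hours 1 and 5 of the light phase, *Degs1* and *S1pr1* lower in hours 1, 5 and 9, and *Sgpl1* lower in hours 1 and 5. The calls of *Acer2* in hour 5, of *S1pr1* in hour 9 and of *Sgpl1* in hour 1 were lost when single slides were left out.

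The 48 mice were male Swiss-Webster mice, given as 12 weeks of age. By the study's methods, single housing began at about this age and lasted some weeks before the treatment, so the mice were older when killed. For the 12 h of the dark phase they drank either 100 µg/ml corticosterone, the main glucocorticoid of mice, made soluble with 0.45% hydroxypropyl-β-cyclodextrin, or the same 0.45% cyclodextrin alone (control), so that the dose followed each mouse's drinking. They were killed in the first, the fifth or the ninth hour of the light phase, when mice rest, which gave 6 groups of 8 mice. The mice were housed singly, and by the study's methods control mice were brothers of treated mice and a group held mice of several litters, so that some mice of a group share a litter; the labels give no litter of a mouse, and none was fitted. Each of the 24 two-color arrays carried a control mouse in Cy3 and a treated mouse in Cy5 with no swap of dyes. Within an hour, a constant dye difference and the treatment therefore cannot be told apart, but such a difference drops out where hours are compared. Slide 1 held 2, 2 and 4 arrays of the first, the fifth and the ninth hour, against 3, 3 and 2 on each of slides 2 and 3. The median spot intensity had a median over arrays of 99.0 in Cy3 and 156 in Cy5, and 60.8 to 67.2% (Cy3) and 64.0 to 73.5% (Cy5) of spots were well above background. Markers of neurons, glia, vessels and hippocampal subfields were each well above background in at least 1 mouse of every group. Of 6 choroid plexus markers, only *Kcne2* was not.

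Ceramide is the common core of sphingolipids. Ceramide synthases join a fatty acid to a sphingoid base, CERS2 with a preference for very long chains, and the desaturase DEGS1 turns dihydroceramide into ceramide. Ceramidases release sphingosine in different compartments: ASAH1 in lysosomes, ASAH2 at the cell surface, ACER2 in the Golgi apparatus and ACER3 in the endoplasmic reticulum and the Golgi apparatus. Sphingosine kinases phosphorylate sphingosine, and the product signals through receptors such as S1PR1, which in the brain is known from endothelial cells and astrocytes. The lyase SGPL1 breaks sphingosine-1-phosphate down irreversibly and so drains the pathway.

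Corticosterone acts through receptors that bind DNA at an inverted repeat, GNACA and TGTNC with 3 bases between them, or at the element TGTTCT, which can overlap its second arm, and the 250 bases before the annotated starts of the members were searched for both on both strands. RefSeq promoters (GRCm38.p6) were at hand for 8 of the 10 genes, with 15 start sites, and not for *Asah1* and *S1pr1*. The inverted repeat was in 0 of the 15 windows and in 0.39% of 32851 windows of this length. The element TGTTCT was in 1 of the 15, that of *Asah2*, and in 16.08% of all windows. Printed 5′ to 3′, as far as they lie outside the annotated genes, are the windows of *Acer2*, the member with the largest difference, of *Sgpl1*, which was lower, and of *Asah2*, with the matched element in capitals.
Acer2 chr4:86874164-86874347 (+): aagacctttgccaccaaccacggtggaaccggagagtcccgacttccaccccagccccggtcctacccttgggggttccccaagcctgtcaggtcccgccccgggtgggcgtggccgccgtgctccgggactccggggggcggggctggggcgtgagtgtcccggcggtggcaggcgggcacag
Sgpl1 chr10:61147685-61147934 (-): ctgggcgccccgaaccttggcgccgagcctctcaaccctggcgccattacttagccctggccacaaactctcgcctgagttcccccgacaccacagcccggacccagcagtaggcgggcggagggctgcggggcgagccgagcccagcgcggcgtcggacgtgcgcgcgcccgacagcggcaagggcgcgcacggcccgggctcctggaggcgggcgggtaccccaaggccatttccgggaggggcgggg
Asah2 chr19:32103141-32103390 (-): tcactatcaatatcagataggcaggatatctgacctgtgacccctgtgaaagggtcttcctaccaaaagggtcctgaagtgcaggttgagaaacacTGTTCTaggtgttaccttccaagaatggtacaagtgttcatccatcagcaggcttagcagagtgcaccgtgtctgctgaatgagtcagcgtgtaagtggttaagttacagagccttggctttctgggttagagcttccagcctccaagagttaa
The printed stretches of *Acer2* and *Sgpl1* were rich in GC (73.4 and 74.8%), that of *Asah2* less so (47.2%). A match or its absence describes these letters only.

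Of the members, *Acer2* was called higher and *Degs1*, *S1pr1* and *Sgpl1* were called lower in treated mice (adjusted p under 0.05), in a data set where calls were frequent. Over the brightest probe of each of the 23783 named genes, 10.3% were called higher and 10.4% lower in the first hour, 9.91 and 10.9% in the fifth, and 8.37 and 7.21% in the ninth. Of the 10 members, 1 was higher and 3 lower in the first hour, 1 and 3 in the fifth, and 0 and 2 in the ninth. These counts were not tested against the background, and single arrays moved them: with each array left out in turn, the calls in both directions together were 3 to 5, 4 to 5 and 1 to 2. The median log2 difference of the members was -0.07, -0.08 and -0.09, that of all named genes -0.0035, -0.0034 and 0.0061. Loess within arrays centers the log ratios, so the medians of all named genes lie near 0 by construction. A shift of the members was not tested.

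**Figure D1:**
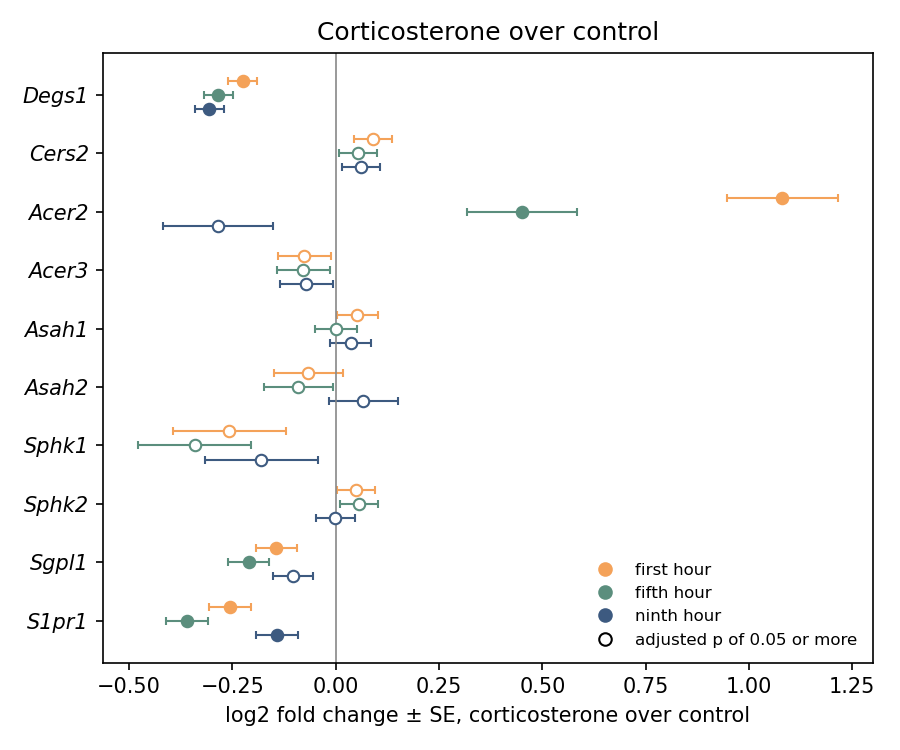
Log2 difference (treated minus control, ± SE) of the brightest probe of each of the 10 genes in the first, the fifth and the ninth hour, 8 arrays each; filled points had an adjusted p under 0.05. *Acer2* stands at 1.08, 0.45 and -0.28, while *Degs1*, *S1pr1* and *Sgpl1* lie below 0 at each hour.

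*Acer2*, the ceramidase of the Golgi apparatus, was the only member called higher in treated mice (chr4:86874348-86932524 in GRCm38.p6). In the first hour, the signal of its brighter probe, A_51_P244408, was 104 to 166 (median 123) in control mice and 191 to 369 (median 263) in treated mice. The groups did not overlap, and their means were 129.9 ± 22.5 and 279 ± 67.9 (SD, n = 8 each). In the fifth hour, control mice had 72.7 to 147 (median 115) and treated mice 90.6 to 224 (median 151). These ranges overlapped, although the treated mouse was the higher on 8 of 8 arrays, as in the first hour. In the ninth hour, control mice had 105 to 206 (median 141) and treated mice 101 to 176 (median 117), and the treated mouse was the higher on 1 of 8 arrays. The RNA is that of whole tissue, where fewer cells of a type and less RNA per cell cannot be told apart.

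**Figure D2:**
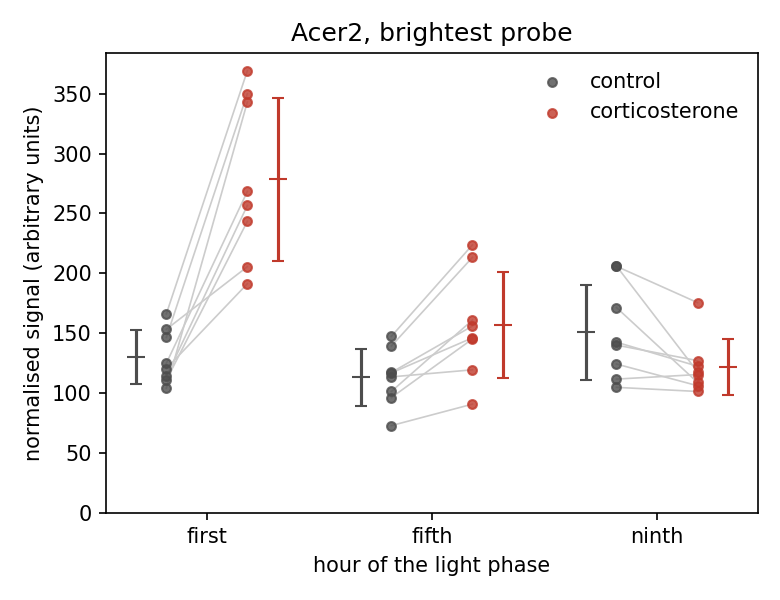
Normalised signal of the brighter *Acer2* probe (arbitrary units) in each of 48 mice, by hour of the light phase. Points are mice, grey lines join the 2 mice of an array, and bars give mean ± SD (n = 8); treated mice lie above all control mice in the first hour and among them in the ninth.

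By limma's separate channel test, *Acer2* was 2.11-fold higher in the first hour (log2 1.08, SE 0.13, adjusted p = 1.6e-08) and 1.37-fold higher in the fifth (log2 0.45, adjusted p = 0.016). The ninth hour, at a log2 difference of -0.28, was not called (adjusted p = 0.14). The log2 difference of the ninth hour minus that of the first was -1.37 (SE 0.19, adjusted p = 1.6e-06), a comparison free of a constant dye difference. Its steps from the first to the fifth (-0.63, adjusted p = 0.35) and from the fifth to the ninth hour (-0.74, adjusted p = 0.16) were not called. The call of the fifth hour was lost without slide 1 (adjusted p = 0.054) and without slide 3 (adjusted p = 0.17). By slide, mean log2 ratios were 0.84 to 1.35 in the first, 0.35 to 0.60 in the fifth and -0.46 to 1.2e-05 in the ninth hour.

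Within each treatment, hours were compared in channels of 1 dye. In treated mice, the *Acer2* signal was lower in the fifth than in the first hour (log2 -0.84, SE 0.16, adjusted p = 3.8e-04) and lower still in the ninth (log2 -1.18 against the first, adjusted p = 8.4e-08). Control mice differed by -0.21 and 0.19 in these comparisons (adjusted p = 0.79 and 0.86) and were not called. From the fifth to the ninth hour the differences were 0.40 in control and -0.33 in treated mice, neither of them called (adjusted p = 0.74 and 0.38).

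The second *Acer2* probe, A_55_P2367463, carries another transcript accession of the gene and was dim, with a mean intensity of 25.1. It was well above background in 1 control and 7 treated mice of 8 in the first hour, in 0 and 4 in the fifth and in 0 and 0 in the ninth. Of all spots, a median over arrays of 63.7% in Cy3 (control) and 69.6% in Cy5 (treated) were so. Dye and treatment cannot be told apart in these counts. The treatment difference of this probe in the first hour was not called by the separate channel test (adjusted p = 0.15). No value is given for it, because only 1 of 8 control signals was well above background. Among treated mice, this probe was called lower in the ninth than in the first hour (adjusted p = 0.0034), and no fold is given because the signals of the ninth hour were not well above background.

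The other 3 ceramidases were not called in any comparison. *Acer3* lay at 790.3 ± 113 in control and 746 ± 65.4 in treated mice (SD, n = 8) in the first hour. Over the 3 hours its log2 differences were -0.08, -0.08 and -0.07 (SE 0.06), with 95% intervals of -0.20 to 0.05, -0.21 to 0.05 and -0.20 to 0.06. *Asah1*, the acid ceramidase of lysosomes, had 2017 to 2235 (median 2059) in control and 1939 to 2745 (median 2124) in treated mice in the first hour. Its groups overlapped at each hour, and its log2 differences were 0.05, 0.00084 and 0.04 (95% intervals -0.05 to 0.15, -0.10 to 0.10 and -0.07 to 0.14). The dimmer *Asah1* probe, A_51_P509098, gave -0.04, -0.07 and -0.02 (SE 0.07).

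*Asah2*, the neutral ceramidase, had 3 probes, of which the brightest gave 109.9 to 148 (median 129) in control and 115 to 142 (median 122) in treated mice in the first hour and 109 to 162 (median 142) and 118 to 165 (median 156) in the ninth. The log2 differences were -0.07, -0.09 and 0.07 (SE 0.08), and these groups overlapped. With each array left out in turn, they were -0.11 to -0.03, -0.18 to -0.05 and 0.02 to 0.11, and none was called. Probe A_52_P56792 was well above background in 0 of 48 channels and gives no fold. Probe A_52_P105509 was so in 8 of 24 control (Cy3) and 22 of 24 treated (Cy5) channels, and was not called. Dye and treatment cannot be told apart in these counts.

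*Degs1*, which introduces the double bond of ceramide, was lower in treated mice at each hour, with groups that did not overlap (chr1:182275964-182282854, probe A_51_P498890). Control mice had signals of 6300.3 to 6958 (median 6676) in the first, 5981 to 6964 (median 6352) in the fifth and 6309 to 7651 (median 6665) in the ninth hour. Treated mice had 5257 to 5945 (median 5785), 4986 to 5754 (median 5310.0) and 5009 to 5733 (median 5472). The treated mouse was the lower on 8 of 8 arrays at each hour, and the signal was lower by 14.4, 17.9 and 19.1%. On the log2 scale these differences were -0.23, -0.28 and -0.31 (SE 0.04; adjusted p = 8.3e-07, 6.0e-09 and 2.2e-09), and slide means lay at -0.38 to -0.14. From the first to the ninth hour the effect moved by -0.08 (95% interval -0.18 to 0.02, adjusted p = 0.77), and for *Degs1*, as for *S1pr1* and *Sgpl1*, none of the comparisons free of a dye difference was called.

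*Cers2*, the synthase for very long chains, had 1088 to 1248 (median 1128) in control and 1095 to 1333 (median 1225) in treated mice in the first hour. Its groups overlapped, with the treated mouse higher on 7, 6 and 5 of 8 arrays over the 3 hours. The log2 differences of 0.09, 0.05 and 0.06 were not called (SE 0.05; adjusted p = 0.14, 0.39 and 0.36). The dimmer probe A_55_P2621535 gave 0.0077, -0.01 and -0.03. Of 24 arrays left out in turn, 1 changed the outcome of *Cers2* in the first hour: without replicate 8 of that hour it passed, at 0.13 (adjusted p = 0.029). It also passed in that hour under 1 of 17 other settings (adjusted p = 0.049).

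The sphingosine kinases were not called at any hour. *Sphk1* had 179 to 327 (median 218) in control and 147 to 250.4 (median 180.4) in treated mice in the first hour, 187 to 463 (median 214) and 145 to 198 (median 184) in the fifth, and 191 to 338 (median 223) and 172 to 364 (median 211) in the ninth. The groups overlapped, with the treated mouse lower on 6, 7 and 6 of 8 arrays. Its log2 differences were -0.26, -0.34 and -0.18 (SE 0.14; adjusted p = 0.20, 0.068 and 0.40). In the fifth hour, 1 control mouse (replicate 8) stood apart, and without its array the difference was -0.21 (adjusted p = 0.28); without replicate 4 of the ninth hour, or with probes of an intensity under 50 left out, the fifth hour passed (adjusted p = 0.044 and 0.047). In the ninth hour, its slide means ran from -0.72 to 0.17, and its log2 difference was -0.53 without slide 1, 0.0015 without slide 3, -0.32 without replicate 4 and -0.08 without replicate 8.

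*Sphk2*, the kinase also found in nuclei, had 1953 to 2151 (median 2076) in control and 1934 to 2302 (median 2179) in treated mice in the first hour. Its log2 differences were 0.05, 0.06 and -0.00086 (95% intervals -0.04 to 0.14, -0.04 to 0.15 and -0.09 to 0.09). It passed in the fifth hour without replicate 3 of that hour (0.11, adjusted p = 0.041) and without slide 2 (0.16, adjusted p = 0.037).

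*Sgpl1*, the lyase, was lower in the first and the fifth hour (chr10:61098642-61147684). Its brighter probe, A_52_P62223, had 1437 to 1762 (median 1574) in control and 1311 to 1505 (median 1442) in treated mice in the first hour, and 1493 to 1911 (median 1655) and 1182 to 1763 (median 1442) in the fifth. The groups overlapped, but the treated mouse was the lower on 8 of 8 arrays at both hours. The signal was lower by 9.47 and 13.6% (log2 -0.14 and -0.21, SE 0.05, adjusted p = 0.023 and 8.4e-04). In the ninth hour, ranges of 1406 to 1744 (median 1681) and 1369.8 to 1621 (median 1521) gave a log2 difference of -0.10 that was not called (adjusted p = 0.13). The second probe, A_55_P1984730, was called in the fifth hour (-0.16, adjusted p = 0.017) and not in the first and the ninth (-0.08 and -0.06, adjusted p = 0.24 and 0.45). The call of the first hour was lost without slide 1, 2 or 3 (adjusted p = 0.062, 0.24 and 0.061) and without replicate 2 or 4 of that hour (adjusted p = 0.060 and 0.090). Its log2 difference was -0.16 to -0.12 with each array left out in turn.

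*S1pr1*, a receptor of sphingosine-1-phosphate that vessels depend on, was lower in treated mice at each hour (chr3:115710433-115715055, probe A_52_P532227). In the fifth hour, control mice had 2368 to 3274 (median 2641) and treated mice 1844 to 2307 (median 2066), without overlap. In the first hour the signals were 2202 to 2622 (median 2455) and 1802 to 2253 (median 2013), and in the ninth 2237 to 2684 (median 2423) and 2071 to 2435 (median 2223). These groups overlapped, with the treated mouse lower on 8 and 7 of 8 arrays. The signal was lower by 16.3, 22.0 and 9.40% (log2 -0.26, -0.36 and -0.14, SE 0.05, adjusted p = 1.4e-04, 4.3e-07 and 0.040). From the fifth to the ninth hour the effect moved by 0.22 (SE 0.07, adjusted p = 0.41), which was not called. The call of the ninth hour was lost without slide 1, 2 or 3 (adjusted p = 0.39, 0.13 and 0.065) and without replicate 1, 2, 3, 5 or 8 of that hour (adjusted p = 0.088, 0.13, 0.083, 0.12 and 0.060). With each array left out in turn, the log2 difference of that hour was -0.17 to -0.12.

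**Figure D3:**
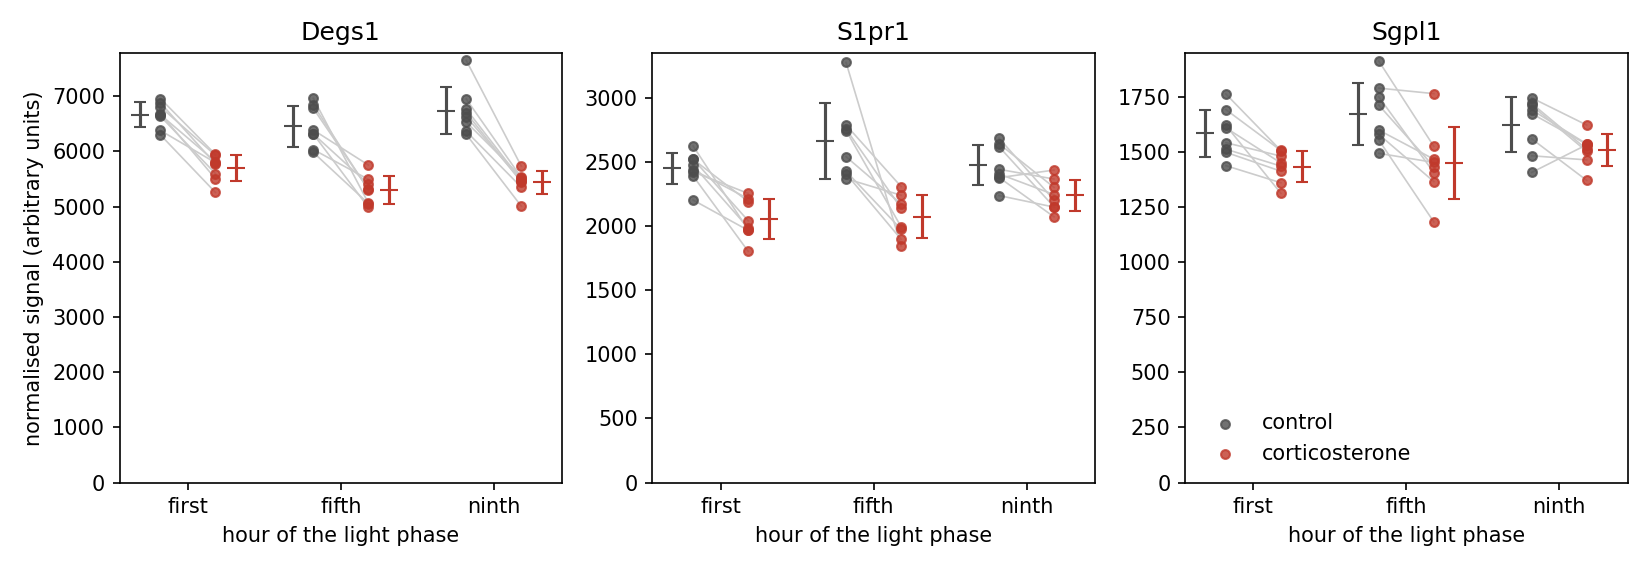
Normalised signal (arbitrary units) of *Degs1*, *S1pr1* and *Sgpl1* in each of 48 mice, by hour of the light phase. Points are mice, grey lines join the 2 mice of an array, and bars give mean ± SD (n = 8); of these genes, *Degs1* separates the groups at each hour and *S1pr1* in the fifth.

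Endothelial markers were called in both directions. Of 8 such markers, 2 were higher and 4 lower in the first hour (median log2 difference -0.23), 2 and 3 in the fifth (-0.11), and 1 and 1 in the ninth (0.10). *Flt1* was lower at each hour (-0.61, -0.47 and -0.37), whereas *Pecam1* was higher in the first and the fifth (0.29 and 0.23), so the list did not move one way. Summed over the list, the signal was 14855 to 18576 in control and 14245 to 15794 in treated mice in the first hour, 15494 to 19893 and 14286 to 16276 in the fifth, and 15077 to 18463 and 13605 to 17124 in the ninth. Of 8 astrocyte markers, 2 were higher and 1 lower in the first hour (median 0.04), 2 and 2 in the fifth (-0.07), and 2 and 2 in the ninth (-0.09). Their summed signal was 102509 to 126435 in control and 117609 to 138653 in treated mice in the first hour, 105164 to 126252 and 118182 to 130453 in the fifth, and 111138 to 123292 and 118882 to 126123 in the ninth. Of 8 microglia markers, 0 were higher and 3, 2 and 1 lower over the 3 hours, and of 7 neuron markers 0, 3 and 2 were higher and 0 lower. Each marker of these lists was well above background in at least 1 mouse of every group. The part of these cells in the *S1pr1* difference was not tested.

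A change of the treatment effect, ninth against first hour, was called for 1 member, *Acer2*, and for 1.45% of the named genes. For the first and the fifth hour, limma called 0 members and 0.0631% of the named genes, and for the fifth and the ninth 0 members and 0.156%. At an unadjusted p under 0.05 these were 1 and 2 members, against 4.40 and 6.18% of the named genes, and a limma test on log ratios per array called *Acer2* alone over the 3 changes.

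Control mice gave 0 calls among the members over the 3 pairs of hours, against 0.837% of the named genes for the ninth and the first, 0.00841% for the fifth and the first and 0.0673% for the ninth and the fifth. At an unadjusted p under 0.05 they were 1, 1 and 2 members, against 12.2, 7.92 and 7.24% of the named genes, and limma on the Cy3 channels alone also called 0. In treated mice, *Acer2* was the 1 member called for the ninth and the first hour, against 6.23% of the named genes, and for the fifth and the first, against 0.858%. At an unadjusted p under 0.05, limma gave 5 and 2 members for these pairs, against 19.3 and 11.3% of the named genes. For the ninth and the fifth hour limma called 0 members and 1.1% of the named genes, with 3 members and 12.2% of the named genes at an unadjusted p under 0.05. Apart from *Acer2*, the differences of treated mice from the first to the ninth hour lay between -0.12 (*Sphk2*, adjusted p = 0.21) and 0.23 (*Asah2*, adjusted p = 0.18). The corresponding control values were -0.07 and 0.10.

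**Figure D4:**
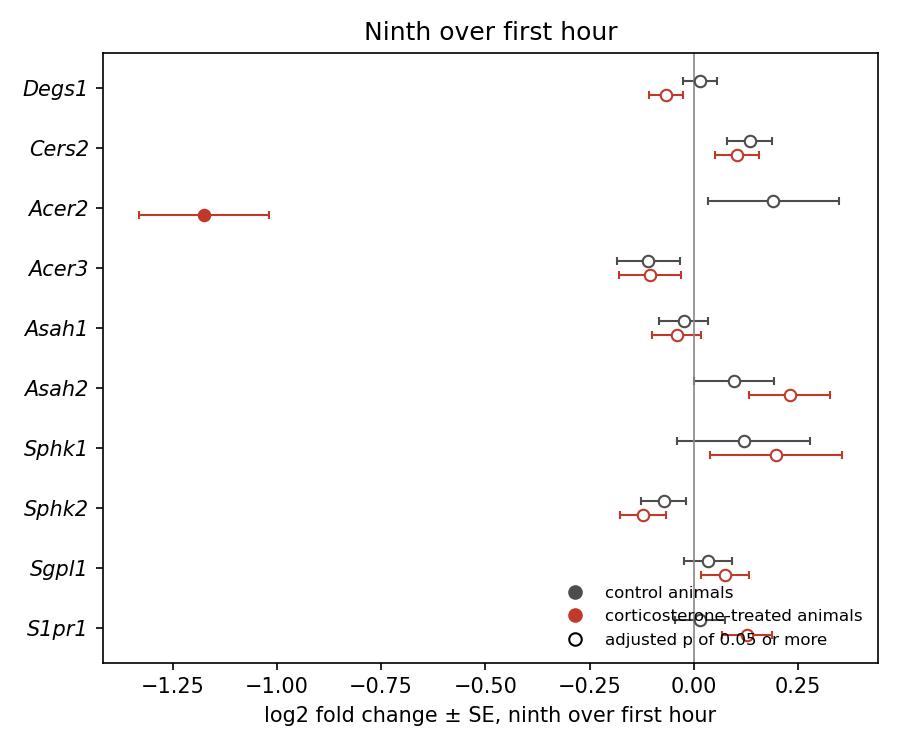
Log2 difference (ninth minus first hour, ± SE) of the brightest probe of each of the 10 genes in control and in treated mice, 8 mice per group; filled points had an adjusted p under 0.05. The single filled point is *Acer2* in treated mice, at -1.18.

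The wider pathway was described with 63 further sphingolipid genes, of which 62 had a named probe. Of these, 14 were higher and 7 lower in the first hour, 12 and 8 in the fifth, and 6 and 4 in the ninth, with medians of 0.05, 0.04 and -9.9e-05. Over all named genes the shares were 10.3% higher and 10.4% lower, 9.91 and 10.9%, and 8.37 and 7.21%. Named below are those called at all 3 hours in 1 direction, or for a changed effect, at a mean intensity of 50 or more; others are marked.

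Transport of sphingosine-1-phosphate and related lipids was represented by 4 genes, of which 3 were higher and 0 lower in the first hour, 3 and 0 in the fifth, and 1 and 1 in the ninth. *Spns2*, its exporter, was higher in the first and the fifth hour (0.31 and 0.20, SE 0.05, adjusted p = 4.6e-07 and 7.7e-04) and lower in the ninth (-0.17, adjusted p = 0.0040). Its effect changed by -0.48 from the first to the ninth hour (adjusted p = 3.9e-07). *Mfsd2a*, a lysolipid transporter of the blood-brain barrier, was higher at each hour (1.23, 0.92 and 0.31, SE 0.07, adjusted p = 1.8e-18, 1.3e-13 and 0.0023), and its effect changed by -0.93 (adjusted p = 9.5e-09). Both changes of the effect had the sign of that of *Acer2*.

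Of 6 genes of sphingosine-1-phosphate breakdown besides *Sgpl1*, 0 were higher and 2 lower at each hour. *Plpp3*, a phosphatase of lipid phosphates at the cell surface, was lower at each hour (-0.52, -0.38 and -0.15, SE 0.05, adjusted p = 2.8e-11, 1.2e-07 and 0.023), and its effect changed by 0.36 (adjusted p = 0.0010). Of the other 4 receptors, 0 were lower, and 1 was higher in the first (*S1pr4*, of an intensity under 50, adjusted p = 0.044) and 1 in the fifth hour (*S1pr2*, 0.32, adjusted p = 0.012), both named after their values were seen. Besides *Degs1* and *Cers2*, de novo synthesis had 0 of 15 genes higher and 1, 2 and 0 lower over the 3 hours. Of 2 further genes listed as ceramidases (*Acer1* and *Naaa*, named only to show what the list held), 1, 0 and 0 were higher and 0 lower. Of 4 genes of ceramide transfer and phosphorylation, 1, 0 and 0 were higher and 0, 1 and 1 lower.

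Other routes from ceramide lead to sphingomyelin and to glycosphingolipids. Of 9 sphingomyelin genes, 3 were higher and 1 lower in the first hour, 3 and 1 in the fifth, and 1 and 0 in the ninth. Of 18 glycosphingolipid genes, 5 and 3, 5 and 2, and 4 and 0 were called higher and lower in these hours. *Sgms1*, which makes sphingomyelin from ceramide, was higher in the first and the fifth hour (0.36 and 0.17, SE 0.05, adjusted p = 3.9e-07 and 0.0095), at -0.0061 in the ninth (adjusted p = 0.94), and its effect changed by -0.37 (adjusted p = 0.0011). *Gm2a*, the activator of ganglioside breakdown, was higher at each hour (0.31, 0.21 and 0.22, SE 0.05), as were *Hexa*, which acts with it in lysosomes (0.11, 0.10 and 0.15), and *B4galt6*, a lactosylceramide synthase (0.15, 0.14 and 0.13). *Ugt8a*, the galactosylceramide synthase of myelin, was named after its values were seen: it was lower in the first and the fifth hour (-0.81 and -0.62, SE 0.16, adjusted p = 2.5e-04 and 0.0048) and not called in the ninth (-0.35, adjusted p = 0.13). Of 8 oligodendrocyte markers, 2 were higher and 3 lower in the first hour (median -0.05), 2 and 3 in the fifth (-0.17), and 2 and 4 in the ninth (-0.18). Their summed signals were 65431 to 82364 in control and 60538 to 80442 in treated mice in the first hour, 59796 to 84801 and 56886 to 74269 in the fifth, and 62503 to 84760.5 and 53398 to 75107 in the ninth, and their part in the *Ugt8a* difference was not tested.

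**Figure D5:**
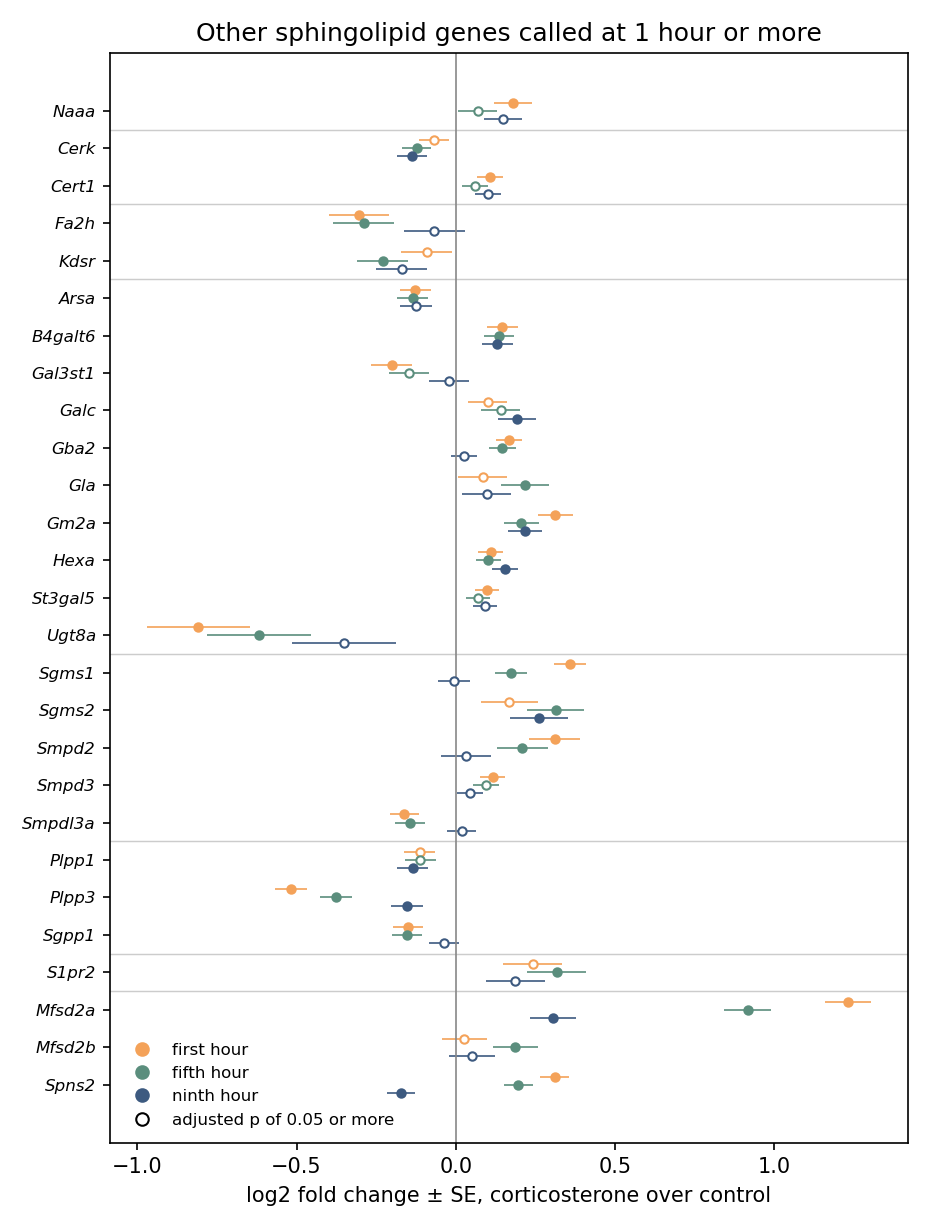
Log2 difference (treated minus control, ± SE) of the 27 further sphingolipid genes with a mean intensity of 50 or more that were called at 1 hour or more, 8 arrays each; filled points had an adjusted p under 0.05. *Mfsd2a* at 1.23 and *Ugt8a* at -0.81 stand at the ends of the range in the first hour.

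The genes most like a member over the 24 arrays were sought for *Degs1* and *S1pr1*, called at all 3 hours, among 15401 named genes. The log2 ratio of *Degs1* ran closest to those of *Sap30* (Pearson r = 0.79), *Nmnat2* (0.77) and *Prss23* (0.74), and that of *S1pr1* to *Tmem74* (0.76), *Cask* (0.72) and *Slc36a4* (0.72). For *Acer2*, added after its values were seen, *Hacd2*, an enzyme of fatty acid elongation (0.90), *Sgms1* (0.89) and *Mfsd2a* (0.88) were closest. These values are descriptive: the 24 points share the 3 hours and the slides.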

How the data were processed

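Per the labels, each two-color Agilent array held hippocampal RNA of 1 control mouse (Cy3) and 1 corticosterone-treated mouse (Cy5). The scanner files deposited by the authors give median pixel intensities of each spot and its local background from Agilent Feature Extraction, not normalized. A further set of values from the authors is 1 log2 ratio per probe and array, which lay closest to normexp correction with an offset of 50 and loess within arrays (median absolute difference 0.00119) and served as an alternative.

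Intensities were analysed in R 4.3.3 with limma 3.58.1 and statmod 1.5.0 (reading: version 1.17.8 of data.table and 2.0.0 of jsonlite; names and figures: Python 3.11.15, matplotlib 3.10.9). Local background was removed with limma's normexp method (offset 50 for p; offset 0 for fold changes and SE) before loess within and quantile normalization between arrays. Outlier spots (80 to 276 per array) were left out, so that 77 probes lacked a spot on some array. The separate channel test fitted 6 groups with an intraspot correlation of 0.279 and 4.89 prior degrees of freedom. The p-values were adjusted by Benjamini-Hochberg over 56605 probes, and a call means an adjusted p under 0.05. Group ranges, means and SDs are of signals normalized without offset, and n counts mice. The number of arrays limits the precision.

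Probes were named by matching their accession to RefSeq (34561 probes, 23783 genes). The members, gene lists and tests were chosen with earlier results of these data known. Named are all members, further pathway genes of a mean intensity of 50 or more that were called at all 3 hours in 1 direction or for a changed effect, and the 3 genes most like each member called at all 3 hours. Mice of an array are paired by the fit. The steps were tested on simulated data. Alternatives were other offsets, background corrections, normalizations, filters, tests on log ratios or 1 dye, slide as a block, an intensity trend, outlier spots kept, all probes, and slides or arrays left out.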

Additional observations from a re-analysis of the deposited data

Results flagged for a closer look

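For *Acer2*, the corticosterone effect of the ninth hour minus that of the first was -1.37 on the log2 scale, by limma's test of the difference itself (adjusted p = 1.6e-06).

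Among groups of 8, 12 of 90 held a mouse or an array that stood apart. Its gap to its nearest neighbour exceeded, as a share of the group's range, the 95% critical value of Dixon's test. Chance gives about 1 in 20 for separate groups of normally distributed values. The 90 groups are not separate, because log2 ratios are made from the same signals, and the signals were not on a log scale. No excess can be read from the count. Signals that stood apart upwards were 2536 for *Asah1*, 3274 for *S1pr1* and 463 for *Sphk1* in control mice of the fifth hour. In treated mice they were 2745 for *Asah1* in the first hour, 179.6 for *Asah2* and 1584 for *Cers2* in the fifth, and 176 for *Acer2*, 2464 for *Asah1* and 364 for *Sphk1* in the ninth. Among log2 ratios, 1 array stood apart for *Asah2* in the fifth hour (0.54), for *Cers2* in the first (-0.19) and for *Sphk1* in the fifth (-1.23). The causes were not tested.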

How the results depend on the processing

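Of the 10 members, 4, 4 and 2 were called in the first, the fifth and the ninth hour. The count of the ninth hour was 1 in place of 2 with an offset of 0 for p, with Aquantile normalization, with a test on log ratios per array, with the authors' log2 ratios and without slide 1, 2 or 3, and *S1pr1* was the member lost. It was 3 with the processed signals of the scanner software, which added *Sgpl1*. With each array left out in turn it was 1 to 2, and the counts of the first and the fifth hour were 3 to 5 and 4 to 5. Over the other alternatives the first hour gave 3 to 4 calls and the fifth 3 to 5. The changed effect was called for *Acer2* alone under each setting that used the brightest probes, with values of -1.52 to -1.04, and control mice gave 0 calls under each. The count of members called between hours in treated mice was 1, and 2 with all probes counted, where the dim *Acer2* probe was the second. It was 1 to 2 with an array left out, *Sphk2* being added without replicate 3 of the fifth hour. *Degs1* was called at each hour under all alternatives, with values of -0.24 to -0.21, -0.33 to -0.22 and -0.33 to -0.27. Among the brightest probes of the members, no called value of a single hour, of the ninth against the first hour for the effect, or of these hours in treated mice, changed its direction under any alternative; other calls were not recomputed singly. The causes of these differences were not tested. Ratios of the 24572 probes with mean intensities below 50 rest on signals close to background. Mice were paired by their array alone. The sample titles number the mice, but neither the labels nor the methods tie these numbers to litters, and no further pairing was fitted.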
